A study of Gallus gallus with 6 samples.

Results

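Mature miRNAs of the miR-200 and miR-429 cluster were followed in the leg muscle of chickens (Gallus gallus, breed Xinghua) from the embryo to the first day after hatching. Members were all rows named miR-200a, miR-200b, miR-429 or miR-141, either arm, in the 6 deposited tables. Of 846 rows in any library, 5 qualified: gga-miR-200a-3p, gga-miR-200a-5p, gga-miR-200b-3p, gga-miR-429-3p and gga-miR-429-5p (gga marks the chicken and is left out after the first values). No row carried the name miR-141. In the RefSeq gene table of the assembly GRCg7b the chicken genes mir-429, mir-200a and mir-200b stand next to each other in that order, with 0 other genes between them, and the symbol MIR141 belongs to the gene with the synonym mir-200a.

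A miRNA gene is transcribed as a hairpin, and either arm of it (5p or 3p) can be kept as the mature strand, which pairs with target messenger RNAs through its seed near the 5′ end. In mammals, miR-200b and miR-429 share a seed with miR-200c, while miR-200a shares a closely related seed with miR-141. The family is abundant in epithelia and scarce in mesenchyme, where ZEB1 and ZEB2, transcriptional repressors of E-cadherin, are among its best-known mammalian targets and in turn repress the miR-200 genes. It is therefore widely used as a marker of epithelial cells and is not counted among the muscle miRNAs.

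Each age was sampled with 2 samples labelled female. E11 and E16 are embryos of 11 and 16 days of incubation, and P1 is the chick 1 day post hatch. No treatment or genetic change is recorded in the labels. They do not say whether the samples of an age were separate birds, so the p-values rest on a spread between samples that may be technical. Library totals lay between 303556 and 589154 counts for E11, 948589 and 1202481 for E16, and 2201359 and 2641042 for P1, so later ages could show rarer miRNAs. The muscle list (miR-499, miR-486, miR-208, miR-206, miR-133, miR-1) ranged from 1.04% of the counts in an E11 library to 15.4% in a P1 library. The file headers call the values FPKM, but all are whole numbers and they were used as counts. Levels below are CPM, counts scaled to a common total after TMM normalization. miR-2954, a Z-linked, male-biased miRNA, had 8666 CPM in P1 replicate 2, against 306 to 437 CPM in the other libraries. P1 replicate 2 was also the library with least of the cluster (3.95 CPM in sum). Whether the label female holds for that library was not tested.

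gga-miR-429-3p was the most abundant member at E11. Its level was 254 CPM in the first and 1730 CPM in the second E11 library, 20.8 and 3.10 CPM in those of E16, and 18.1 and 1.13 CPM in those of P1. Behind these levels stood 87 and 1201 counts, 26 and 3 counts, and 42 and 2 counts, respectively. Both E11 libraries lay above all 4 later ones, and the ranges of E16 and P1 overlapped.

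gga-miR-200b-3p, of the same seed group in mammals, had 90.5 and 674 CPM at E11, 19.97 and 2.06 CPM at E16, and 12.1 and 0.565 CPM at P1. Its counts were 31 and 468, then 25 and 2, then 28 and 1. Again E11 stood clear of the later ages, and the second library of E16 and of P1 was close to the detection limit.

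gga-miR-200a-3p, of the miR-141 seed group, had 161 and 638 CPM at E11, 14.4 and 0 CPM at E16, and 29.7 and 2.26 CPM at P1. The count of 0 in the second E16 library allows a level of up to 3.10 CPM, taking 3 counts as the limit. At E11 the ratio of miR-200b-3p to this strand was 0.564 (95% interval 0.351 to 0.891) in replicate 1 and 1.06 (0.926 to 1.21) in replicate 2. At P1 miR-200a-3p was the highest member in both libraries. In the second this order rested on 4 counts, against 2 of miR-429-3p and 1 of miR-200b-3p.

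gga-miR-200a-5p, the other strand of the same hairpin, was scarcer, at 43.8 and 80.7 CPM at E11, 1.60 and 1.03 CPM at E16, and 0.431 and 0 CPM at P1. It was counted 15 and 56 times at E11, 2 and 1 times at E16, and 1 and 0 times at P1. Its E11 libraries agreed better than those of the 3p strands, and its 3 ages did not overlap. E16 and P1 were set apart, however, by 1 count in the second E16 and 1 count in the first P1 library, which differ in depth. For P1 against E16, 24.9% of all entries did not overlap in the downward direction. miR-429-5p was listed in the second E11 library alone, with 3 counts (4.32 CPM), and was too rare to test.

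**Figure D1:**
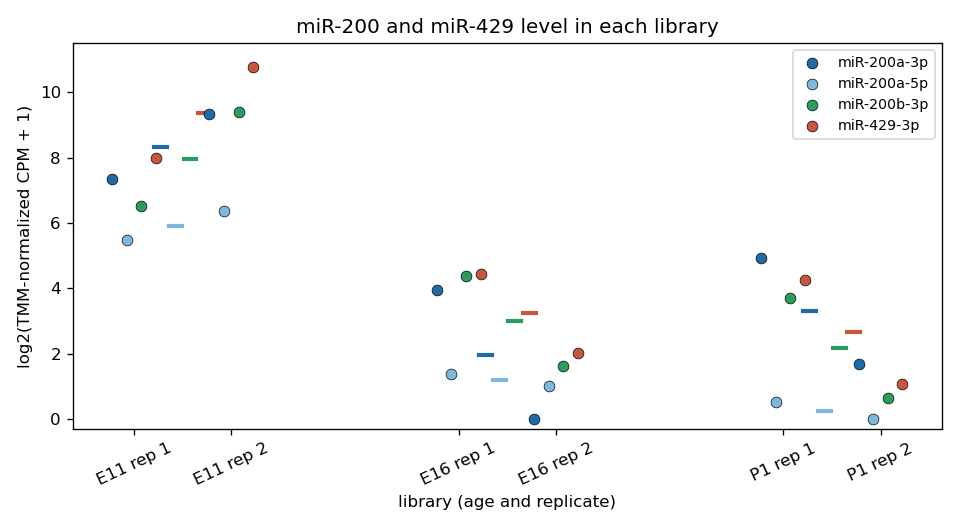
Level of the 4 tested members in each of the 6 libraries, as log2(CPM + 1), with each point a library and each short bar the mean of the plotted values of an age. Points of every member are higher in both E11 libraries than in any later library. Of all entries, 29.1% lay lower at E16 and 34.6% lower at P1 than at E11 without overlap. For miR-200a-5p a higher level at E11 was built into its selection. The second library of E16 and of P1 lies below the first for every member. For miR-200a-5p that order rests on 2 against 1 and 1 against 0 counts, too few to show which was higher.

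The gap between E11 and the later ages was narrowest for miR-200b-3p. Its lower E11 library exceeded its highest later library, the first of E16, 4.53-fold (95% interval 2.59 to 8.005, exact and for counting error only, as are all intervals below). The same gap was 5.40-fold for miR-200a-3p (3.72 to 7.81), against the first P1 library. For miR-429-3p it was 12.2-fold (7.81 to 19.8) and for miR-200a-5p 27.4-fold (6.37 to 247), both against the first E16 library. Reads without molecular identifiers are not independent molecules, and these intervals leave out the spread between libraries, which is given below.

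The comparison of E16 with E11 asked how the cluster differed between 2 stages of embryonic muscle. All 4 tested members were lower at E16, and 1 of them, miR-200a-5p, passed the test. That strand was tested only by virtue of its E11 counts, so a difference from E11 was built into its selection. Its call adds no support. The quasi-likelihood test of edgeR, adjusted by Benjamini-Hochberg over 289 entries with a threshold of 0.05, called 4.15% of all entries lower at E16. The ages did not overlap for any of the 4, a pattern that 29.1% of all entries showed in the downward direction. The members' median log2 fold change was -5.59, against -0.03 over all entries. The lack of overlap and this median also include miR-200a-5p, with the same limit. In bulk tissue, fewer cells of a type and less of the RNA in each cell cannot be told apart.

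miR-200a-5p fell by 5.45 on the log2 scale (SE 0.77, adjusted p = 0.0128, n = 2 an age). The E11 libraries together held 71 counts and the E16 libraries 3, which after scaling is a ratio of 50.7 (95% interval 16.7 to 252). miR-429-3p had the largest fitted difference of the members, a log2 fold change of -6.34 (SE 1.63, adjusted p = 0.0656), from 992 ± 1044 CPM to 11.9 ± 12.5 (SD, n = 2). miR-200a-3p had -5.73 (SE 1.74, adjusted p = 0.0951), from 399 ± 338 to 7.19 ± 10.2 CPM. miR-200b-3p had -5.08 (SE 1.61, adjusted p = 0.106), from 382 ± 413 to 11.015 ± 12.7 CPM. The standard errors of the 3p strands were more than 1.6 on the log2 scale, and that of the scarcer 5p strand was less than 0.8. The call of miR-200a-5p was lost without E11 replicate 2 (-4.96, adjusted p = 0.0643) and without either E16 library, with -5.74 (adjusted p = 0.206) when replicate 1 and -5.01 (adjusted p = 0.219) when replicate 2 was left out.

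Setting P1 against E16 shows the cluster on both sides of hatching. edgeR called 0 of 289 entries, 0% of the background, and 37 entries had an unadjusted p under 0.05, none of them a member. DESeq2 called 2 entries, neither of them a member. miR-200a-3p had a log2 fold change of 1.11 (SE 1.52, adjusted p = 0.796), miR-429-3p -0.31 (SE 1.37, adjusted p = 0.955) and miR-200b-3p -0.79 (SE 1.46, adjusted p = 0.870). For these strands the 2 ages overlapped. miR-200a-5p had -2.07 (SE 1.14, adjusted p = 0.474) and rested on 3 counts in the E16 and 1 in the P1 libraries, which gives a ratio of 5.53 with an interval of 0.444 to 290. Differences of the size of these standard errors were not detectable with 2 libraries an age.

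The sign of the 3p strands in this comparison turned on single libraries. Without P1 replicate 1, miR-200a-3p had -1.73. Without E16 replicate 1, it was 1.59 for miR-429-3p and 1.57 for miR-200b-3p, and without P1 replicate 2 they had 0.59 and 0.12.

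Setting P1 against E11 covers the full age range and shares the E11 libraries with the first comparison. Of the 4 tested members, 3 fell and none rose, where 16.3% of all entries were called lower. The ages did not overlap for any of the 4, as for 34.6% of all entries in that direction. The members' median log2 fold change was -6.26, against -0.15 over all entries. The count, the lack of overlap and the median all include miR-200a-5p, which was tested only by virtue of its E11 counts.

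miR-200a-5p fell by 7.53 on the log2 scale (SE 0.86, adjusted p = 0.00320, n = 2 an age). Against its 71 counts at E11 stood 1 count at P1, which gives a ratio of 280 with an interval of 48.7 to 11222. miR-429-3p fell 101-fold (log2 fold change -6.65, SE 1.64, adjusted p = 0.0296), to 9.61 ± 12.0 CPM (SD, n = 2). miR-200b-3p fell 58.5-fold (-5.87, SE 1.66, adjusted p = 0.0392), to 6.31 ± 8.13 CPM. miR-200a-3p had 15.99 ± 19.4 CPM at P1 and did not pass, with a log2 fold change of -4.62 (SE 1.62, adjusted p = 0.0682). Without any 1 of the 6 libraries, miR-429-3p and miR-200b-3p lost their calls, with adjusted p between 0.0502 and 0.102 and between 0.0619 and 0.175. miR-200a-5p was called in each of these 6 fits, with adjusted p between 0.0151 and 0.0457. It entered the tested entries through its E11 counts alone (15 and 56, against 2, 1, 1 and 0 later), so a difference from E11 was built into its selection and these calls add no support.

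**Figure D2:**
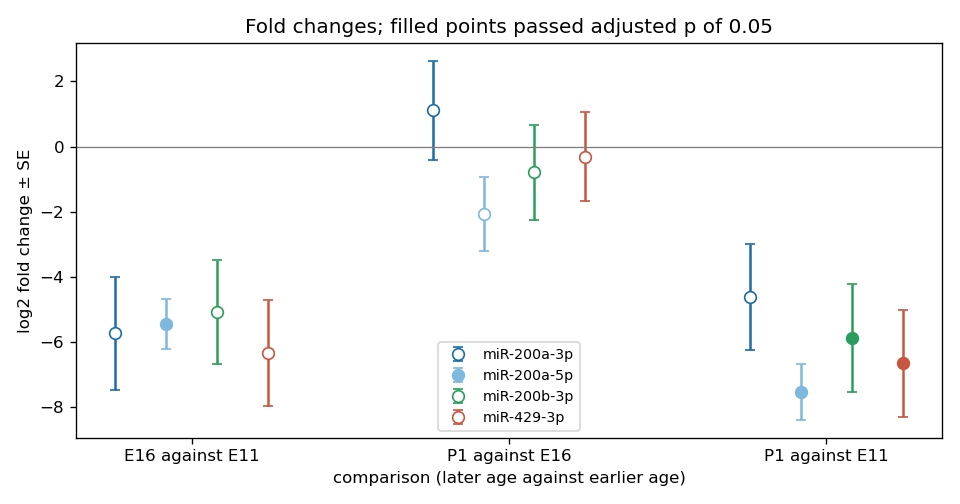
Fitted log2 fold change of each tested member in the 3 comparisons, with bars of 1 SE (edgeR, 2 libraries an age) and filled points where the adjusted p was under 0.05. Points lie between -6.34 and -5.08 for E16 against E11 and between -7.53 and -4.62 for P1 against E11, while those for P1 against E16 lie between -2.07 and 1.11.

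The size of the difference from E11 depended on which library represented each age. Without E11 replicate 2, the E11 library with more of the cluster, the log2 fold changes of P1 against E11 were -4.66 for miR-429-3p, -3.76 for miR-200b-3p and -3.28 for miR-200a-3p. Without P1 replicate 1 they were -9.65, -9.13 and -7.42, and without P1 replicate 2 they were -5.68, -4.88 and -3.66. For E16 against E11 the same strands had -4.40, -3.02 and -4.43 without E11 replicate 2, and -8.19 and -7.39 for miR-429-3p and miR-200b-3p without E16 replicate 1. In that fit miR-200a-3p was left with a single E16 library at 0 counts, and its fitted value of -11.91 depends on the small constant added before fitting. Without E16 replicate 2 the values were -5.31, -3.99 and -4.55 in the order above. Since E11 did not overlap with the later ages, leaving out a library could not turn these directions.

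**Figure D3:**
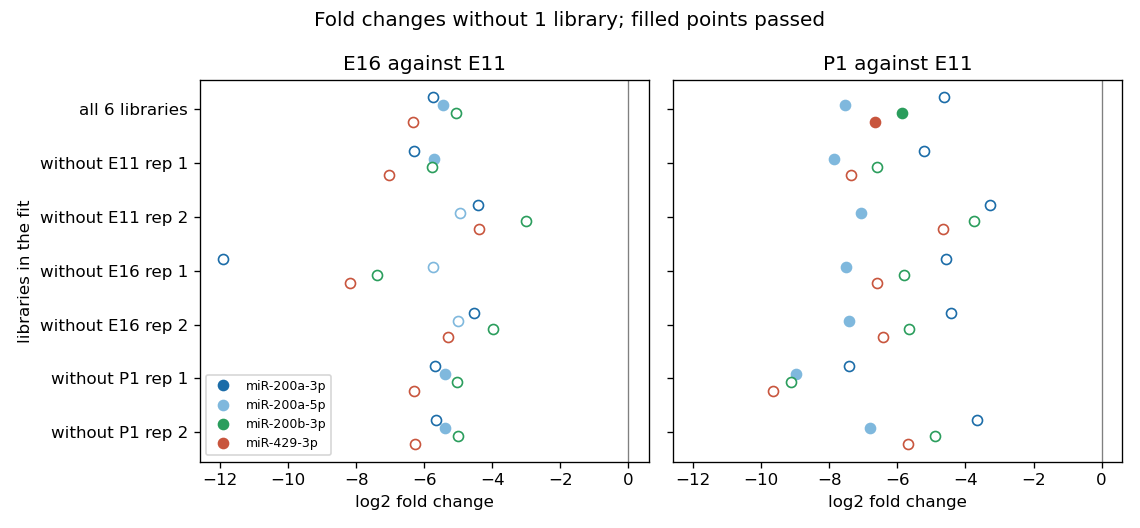
Log2 fold change of each tested member with all 6 libraries and without each library in turn, for E16 against E11 (left) and P1 against E11 (right), with filled points where the adjusted p was under 0.05. All points are below 0, and in the right panel the filled points outside the fit of all 6 libraries belong to miR-200a-5p.

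Summed over the 5 members, the level of the cluster at E11 was 549 CPM in replicate 1 and 3128 CPM in replicate 2, from 188 and 2171 counts. At E16 it was 56.7 and 6.19 CPM, from 71 and 6 counts, and at P1 60.3 and 3.95 CPM, from 140 and 7 counts. Both E11 libraries were above all later ones. The cluster thus took 0.0619% (95% Clopper-Pearson interval 0.0534 to 0.0714) and 0.368% (0.353 to 0.384) of all counts in the E11 libraries. The shares were 0.00590% (0.00461 to 0.00745) and 0.000633% (0.000232 to 0.00138) at E16, and 0.00530% (0.00446 to 0.00626) and 0.000318% (0.000128 to 0.000655) at P1.

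The mean summed level (± SD, n = 2) was 1838 ± 1824 CPM for E11, 31.4 ± 35.7 CPM for E16 and 32.1 ± 39.8 CPM for P1. The E11 mean was 58.5-fold the E16 mean and 57.2-fold the P1 mean, log2 ratios of -5.87 and -5.84. Single libraries moved these ratios: they were -4.12 and -4.09 without E11 replicate 2, and -8.21 without E16 replicate 1 and -8.86 without P1 replicate 1. An exact two-sided permutation test gave p = 0.333 for E11 against either later age, the smallest p that 2 against 2 can give, and p = 1 for P1 against E16. The order of the ages was E11 first, with E16 and P1 not distinguishable beyond their spread.

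Within each age the libraries differed in the summed level by more than counting error. At E11 replicate 2 was 5.70-fold higher (95% interval 4.91 to 6.65). At E16 replicate 1 was 9.16-fold higher (4.01 to 25.8), and at P1 replicate 1 was 15.3-fold higher (7.21 to 38.6). The 3p strands were higher in the same library at each age. At E11 the ratio of replicate 2 to replicate 1 was 7.45 for miR-200b-3p (5.18 to 11.1), 6.81 for miR-429-3p (5.48 to 8.57), 3.98 for miR-200a-3p (2.999 to 5.36) and 1.84 for miR-200a-5p (1.03 to 3.51). At P1 the ratio of replicate 1 to replicate 2 was 21.4 for miR-200b-3p (3.53 to 873), 16.02 for miR-429-3p (4.17 to 137) and 13.2 for miR-200a-3p (4.91 to 49.6), and miR-200a-5p had 1 count against 0. At E16 the same ratio was 9.67 for miR-200b-3p (2.41 to 84.3), 6.71 for miR-429-3p (2.06 to 34.6) and 1.55 for miR-200a-5p (0.0806 to 91.3), and miR-200a-3p had 18 counts against 0. For miR-200a-5p at E16 and P1 these counts do not show which library was higher.

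The proportions within the cluster could be read in the 4 libraries with at least 20 member counts. miR-429-3p made up 46.3% (95% interval 39.0 to 53.7) and 55.3% (53.2 to 57.4) of the members' counts in the E11 libraries, 36.6% (25.5 to 48.9) in the first E16 library and 30.0% (22.6 to 38.3) in the first P1 library. miR-200a-3p made up 29.3% (22.9 to 36.3) and 20.4% (18.7 to 22.2) at E11, 25.4% (15.8 to 37.1) at E16 and 49.3% (40.7 to 57.9) at P1. miR-200b-3p made up 16.5% (11.49 to 22.6) and 21.6% (19.8 to 23.3) at E11, 35.2% (24.2 to 47.5) at E16 and 20% (13.7 to 27.6) at P1. In the P1 library miR-200a-3p and miR-429-3p thus stood in the opposite order to both E11 libraries.

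The ratio of miR-429-3p to miR-200a-3p gives the same pattern without the other members. It was 1.58 (1.12 to 2.26) and 2.71 (2.43 to 3.03) in the E11 libraries, 1.44 (0.762 to 2.80) in the first E16 library and 0.609 (0.405 to 0.906) in the first P1 library. The second P1 library, with 2 and 4 counts, had 0.500 (0.0452 to 3.49). The ratio of miR-429-3p to miR-200b-3p, members of one seed group, was 2.81 (1.84 to 4.38) and 2.57 (2.30 to 2.86) in the E11 libraries, 1.04 (0.577 to 1.88) in the first E16 library and 1.5 (0.908 to 2.51) in the first P1 library. The second libraries, with 3 and 2 counts at E16 and 2 and 1 at P1, had 1.5 (0.172 to 17.96) and 2 (0.104 to 118). These intervals compare libraries, not ages, and the ratios were not tested between ages, where an exact test of 2 against 2 libraries cannot go below p = 0.333. Ratios between different miRNAs also hold the ligation and amplification bias of each sequence, whose part in them was not tested.

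The arms of miR-200a differed in the same libraries. There were 3.67 counts of the 3p arm for each of the 5p arm in E11 replicate 1 (2.04 to 6.99), 7.91 in E11 replicate 2 (5.98 to 10.6), 9 in E16 replicate 1 (2.15 to 79.98) and 69.0 in P1 replicate 1 (12.0 to 2764). In P1 replicate 1 this rested on 69 counts against 1. The 3p arm was the more abundant strand in the 5 libraries where it was listed, and in E16 replicate 2 it had 0 counts against 1 of the 5p arm.

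**Figure D4:**
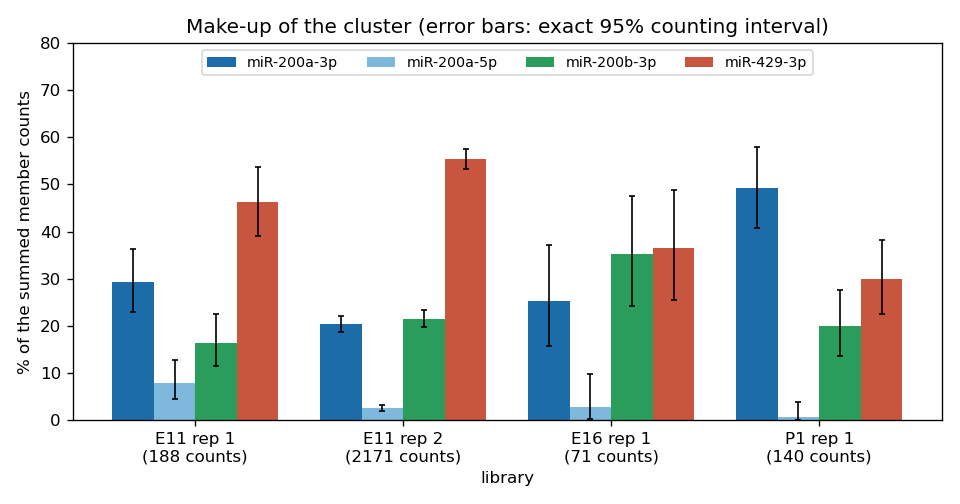
Share of the summed member counts taken by each of the 4 tested members in the 4 libraries with at least 20 such counts, in percent, with exact 95% intervals for counting error. The bar of miR-429-3p is highest in both E11 libraries (46.3% and 55.3%), and that of miR-200a-3p is highest in the first P1 library (49.3%).

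Other epithelial miRNAs were compared with the cluster. Among 3 epidermal entries, which are miR-205a, miR-205b and miR-203a, 2 fell at E16 and the same 2 at P1 against E11, namely the miR-205 pair, which mark stratified epithelia in mammals. miR-205a had 6403 and 3550 CPM at E11, 83.1 and 49.5 CPM at E16, and 43.5 and 3.39 CPM at P1. Its log2 fold changes against E11 were -6.23 at E16 (adjusted p = 0.0240) and -7.71 at P1 (adjusted p = 0.00675). miR-205b had 2834 and 3243 CPM at E11, 84.7 and 61.9 CPM at E16, and 59.4 and 23.2 CPM at P1, with -5.37 (adjusted p = 0.00558) and -6.19 (adjusted p = 0.00237). Both were more abundant than the whole cluster in each E11 library, and their fitted differences are of the size seen for miR-429-3p.

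The libraries of E11 ranked differently for the epidermal miRNAs and the cluster. miR-205a was 1.80-fold higher in replicate 1 (95% interval 1.70 to 1.91) and miR-203a, an epidermal differentiation miRNA, 1.82-fold higher there (1.52 to 2.19), while the summed cluster was 5.70-fold higher in replicate 2. miR-205b was 1.14-fold higher in replicate 2 (1.06 to 1.24). At P1 all of them were higher in replicate 1, miR-205a 12.8-fold (5.70 to 35.8), miR-205b 2.57-fold (1.80 to 3.73) and miR-203a 123-fold (73.0 to 225). miR-203a had 660 and 362 CPM at E11, 204 and 37.1 CPM at E16, and 971 and 7.91 CPM at P1, and was the only one of these epidermal entries whose P1 range reached above its E11 range.

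Of 11 entries of other epithelial miRNAs, 5 were tested. None was called at E16, and 2 fell at P1 against E11, with a median log2 fold change of -2.46 for the 5. These were miR-184-3p, known from cornea and skin of mammals, at -3.13 (adjusted p = 0.0207), and miR-31-5p, abundant in mammalian epidermis and also in other tissues, at -8.71 (adjusted p = 0.0304). The latter was tested only through its E11 counts, with 0 and 4 counts at E16 and 7 and 2 at P1. Its fall from E11 was thus built into its selection and adds no support. miR-31-5p had 23.3 CPM in E11 replicate 1 and 1840 CPM in E11 replicate 2, and 4.13 CPM or less in every later library. Like the cluster it was higher in E11 replicate 2, where it had 1277 counts against 8 in replicate 1. Its level is uncertain in that 1 provisional entry held the same counts to within 10%, or 3 counts, in every library. miR-183 (0.45), miR-194 (-2.23) and miR-215-5p (-2.46), of sensory and gut epithelia, did not pass at P1 against E11. Among the untested entries, miR-34c-5p and the miR-449 entries of ciliated epithelia had at most 12 counts in any library. miR-31-3p had 79 counts (114 CPM) in E11 replicate 2 and 0 in every other library. miR-375 had 13 counts in E11 replicate 2 and 17 in P1 replicate 1, its highest counts. The part of these epithelial miRNAs and of the epidermal miRNAs in the result for the cluster was not tested.

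**Figure D5:**
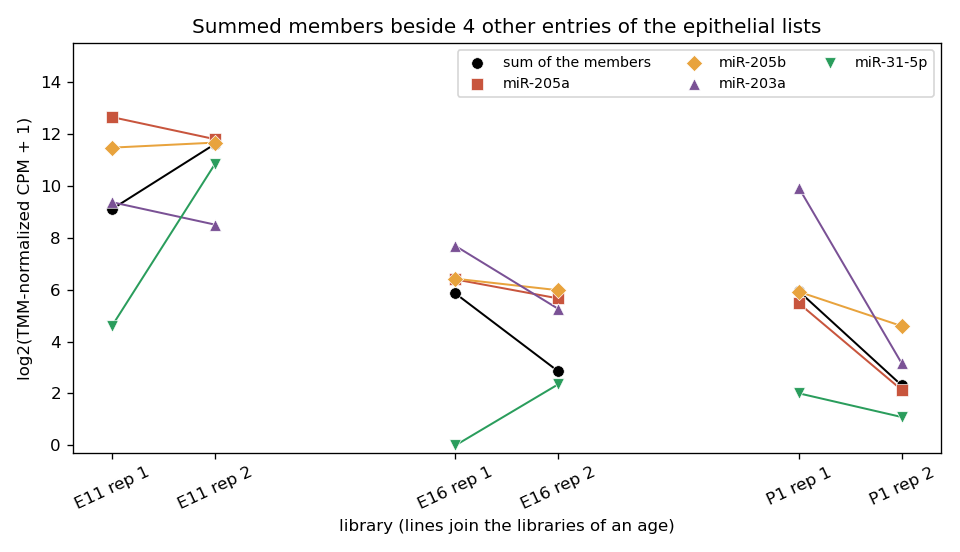
Summed level of the 5 members beside miR-205a, miR-205b, miR-203a and miR-31-5p in each library, as log2(CPM + 1), with lines joining the libraries of an age. At E11 the sum of the members and miR-31-5p are higher in replicate 2 while miR-205a and miR-203a are higher in replicate 1, and at P1 every plotted series is higher in replicate 1.

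The named entries with profiles most like that of the summed cluster were miR-205b, miR-205a, miR-3528, miR-551-3p and miR-31-5p. Likeness was the root mean square difference between log2(CPM + 1) profiles over the 6 libraries, each centred on its own mean. It was 1.24, 1.53, 1.84, 1.91 and 2.06 in that order, against a median of 3.35 over the tested entries outside the cluster. The members themselves lay at 0.304 (miR-429-3p), 0.479 (miR-200b-3p), 0.753 (miR-200a-3p) and 1.38 (miR-200a-5p) from their sum, of which they are part. Of the 5 nearest entries of any kind, 3 carried provisional identifiers without a name. Entry 1_3595 had 2665 and 3347 CPM at E11, close to miR-205b, and 26_20140 had 6164 and 3537 CPM, close to miR-205a. Provisional entries also lay close to abundant named ones, such as 7_32745 (59669 and 93528 CPM at E16) and miR-10b-5p (60267 and 93426 CPM). Whether such entries list the same miRNAs again was not tested. If they do, the library totals and the shares over all entries count those miRNAs more than once. miR-3528 had 14.6 and 23.1 CPM at E11 and at most 2.15 CPM later, and miR-551-3p had 49.6 and 64.8 CPM at E11 and at most 10.3 CPM later. These 2, miR-31-5p and the provisional entry 26_20140_star would not have been tested without their E11 counts. A level higher at E11 was thus built into their selection, and their likeness to the cluster adds no support. No other entry had counts within 10%, or within 3 counts, of any tested member in all 6 libraries.

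Markers of other cell types were also counted at P1 against E11. Over all entries, 14.2% were called higher and 16.3% lower at P1. Of the muscle list, 8 of 10 tested entries rose and none fell, and both endothelial entries (miR-126) rose. Of the erythroid list (miR-451, miR-144) and the leukocyte list (miR-142, miR-155 and miR-223), 1 of 3 rose in each. Of the cartilage list (miR-140 and miR-455), 2 of 3 fell, and of the neural list (miR-9, miR-124 and miR-128) 1 of 5 did, a share near that of all entries. None of 3 mesenchymal entries (miR-199 and miR-214) passed. Within P1, replicate 1 had more of the cluster. That library also had more of the summed erythroid list (34720 against 7734 CPM) and leukocyte list (803 against 255 CPM). Its summed muscle list was lower (137412 against 191434 CPM), but the most abundant muscle entries differed in direction. miR-133a-3p was lower there (68277 against 139114 CPM), while miR-499-5p was higher (58895 against 36070 CPM). Within E16, where replicate 1 also had more of the cluster, the erythroid list had 6063 and 2794 CPM in replicates 1 and 2. The leukocyte list had 294 and 215 CPM there, and the muscle list 70737 and 77514 CPM. Of the muscle entries, miR-133a-3p was higher in E16 replicate 1 (47298 against 37516 CPM) and miR-499-5p lower (15181 against 29831 CPM). Within E11, where replicate 2 had more of the cluster, the erythroid list had 3070 and 3355 CPM and the muscle list 11380 and 8840 CPM in replicates 1 and 2. The leukocyte list had 90.5 and 164 CPM in these E11 libraries. Here miR-499-5p fell from 5820 CPM in replicate 1 to 3000 CPM in replicate 2, whereas miR-133a-3p had 3219 and 3543 CPM. The part of these cell types in the levels of the cluster was not tested.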

How the data were processed

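Small RNA libraries of 6 leg muscle samples were analysed. Trim Galore, Bowtie, TopHat, Cufflinks and the build galGal4 appear in the submitters' processing notes without roles or versions, and the tool for counting reads per miRNA was not given in the sources used here. In addition, the labels carry wording on RNase R and ribosomal RNA that belongs to another kind of library. Deposited values were used as counts per mature miRNA: all were whole numbers, although the unit is FPKM per the file headers, and if the headers are right the count tests are unsuitable. Each file listed entries with at least 1 count, and an entry missing from a file was set to 0.

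Of 846 entries, 289 passed edgeR's filterByExpr (minimum count 10, minimum total 15), among them 4 of the 5 members. All 4 passed with their E11 counts, and miR-200a-5p, with at most 2 counts in any later library, through them alone. Libraries were scaled by TMM, and edgeR 4.0.16 in R 4.3.3 fitted 1 coefficient per age to all 6 libraries, leaving 3 residual degrees of freedom, with two-sided quasi-likelihood F-tests and Benjamini-Hochberg adjustment over all 289. The SE is the log2 fold change divided by the square root of F. DESeq2 1.42.0 and limma 3.58.1 served as alternatives. Intervals are exact binomial at 95%. The fitting procedure was also run on simulated counts in which all entries shared the same spread between libraries. The members differ in that spread, so the run does not show how the tests perform for them.

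The members, the marker lists and the rule for naming other entries (all tested epithelial entries, and the 5 named and 5 further entries most like the summed cluster) were chosen with earlier results of these data known. Coordinates are not given, since the gene table's build differs from that in the notes.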

Additional observations from a re-analysis of the deposited data

How the results depend on the processing

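For E16 against E11, 19 entries were called in all. The count was 38 with DESeq2, 46 with no filter on low counts, 12 with named entries only, 44 with limma on log2(value + 1) of unscaled values taken as FPKM, and 0 to 11 without 1 library. Members called lower numbered 1, against 3 with DESeq2, 4 with no filter and 0 to 1 without 1 library. With no filter miR-200a-3p had -5.45, miR-200b-3p -4.79 and miR-429-3p -6.05, and with DESeq2 miR-200b-3p had -5.08 and miR-429-3p -6.33, all then past the threshold. In the main fit these 3 strands had -5.73, -5.08 and -6.34, so with no filter they passed with smaller differences. That fit took in 846 entries, against 289. What the added low-count entries did to its estimate of the spread was not tested. Without 1 library miR-200a-5p had -5.74 to -4.96. For P1 against E16, 0 entries were called, against 2 with DESeq2, 13 with no filter and 0 to 1 without 1 library. No member was called lower under any of the 15 alternatives. Without 1 library miR-200a-3p had -1.73 to 7.33, miR-200b-3p -4.10 to 1.57 and miR-429-3p -3.36 to 1.59, and as FPKM miR-429-3p had 0.13. The value of 7.33 came from the fit without E16 replicate 1, where miR-200a-3p had a single E16 library at 0 counts. That value depends on the small constant added before fitting.

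For P1 against E11, 88 entries were called, against 156 as FPKM, 28 with these 2 ages only and 10 to 61 without 1 library. Members called lower numbered 3, against 1 as FPKM, 1 with these 2 ages only and 1 without any 1 library. miR-200b-3p lost its call with RLE size factors (-5.74, adjusted p = 0.0528), with epithelial entries left out of scaling (-5.84, adjusted p = 0.0506), as FPKM (-4.01) and with these 2 ages only (-5.87). miR-429-3p lost it as FPKM (-4.84) and with these 2 ages only (-6.65). Without 1 library miR-200b-3p had -9.13 to -3.76 and miR-429-3p -9.65 to -4.66. With no filter miR-200a-3p passed (-4.21, against -4.62 in the main fit), with the limit given above for that fit. miR-200a-5p was called in all 15 alternatives, but was tested only by virtue of its E11 counts. As FPKM, with no scaling, the median over all entries was 1.09, 0.92 and 1.84 in the 3 comparisons. Calls then split into 39 higher and 5 lower at E16 and 149 and 7 at P1 against E11 (7 and 12, and 41 and 47, with scaling). The later libraries have larger totals, and the part of this in the medians was not tested. The log2 ratio of the mean summed level without 1 library was -8.21 to -4.12, -2.99 to 2.38 and -8.86 to -4.09. The causes of these shifts were not tested.

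Replicate numbers recur at each age. Differences between replicates 1 and 2 correlated over entries at 0.0013 (E11 and E16), -0.0269 (E11 and P1) and 0.323 (E16 and P1). The differences between replicates 1 and 2 thus ran partly the same way at E16 and P1 alone, and only weakly. The entries correlated include the members and provisional entries close to named ones, so they are not independent values. What a shared number stands for was not tested. With a replicate block 30 entries and 1 member were called for P1 against E11, where miR-200b-3p had -6.77 (adjusted p = 0.0704) and miR-429-3p -7.52 (adjusted p = 0.0588). A fit that left out a library kept 1 library in that age, assumed to vary like the others. Member levels in the second libraries of E16 and P1 rest on 4 or fewer counts each, although these libraries are deeper than those of E11.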
